A study of Danio rerio with 9 samples.

Results

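The resting atrioventricular tissue of uninjured zebrafish (Danio rerio) was described from the 3 uninjured libraries of a series of 9, all of which were used. The other 6 libraries came from tissue collected 48 h or 21 d after valve cells had been ablated with metronidazole, 3 libraries at each time, and their values were not used. Each uninjured library was made from material labelled as 2 hearts, and the tissue had been cut out of frozen heart sections with a laser. PolyA RNA (20 ng of total RNA as input) was turned into strand-specific libraries and read as paired ends of 75 bases. The labels give these fish as uninjured and name no strain, transgene, sex or age, and do not say whether they were bathed in metronidazole. They also do not say that the 3 libraries came from separate fish, so the spread between libraries may be technical.

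An atrioventricular valve is a set of leaflets between atrium and ventricle that stops blood from flowing back. Its surface is a sheet of endothelial cells, continuous with the endocardium that lines the heart, and its core holds interstitial cells in a matrix of collagens, proteoglycans and elastic fibres. The leaflets are rooted in heart muscle and bathed in blood, whose red cells keep a nucleus in fish, so tissue cut at this site can carry RNA of all of these cells.

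The values are normalised read counts for 21692 genes. A value of 1 stood for 0.999, 0.851 and 1.07 reads in libraries 1, 2 and 3, which gives about 19398368, 18401091 and 20276234 counted reads. Longer transcripts yield more reads, and no transcript lengths were used here, so a rank or a share below describes where the reads lay and not the number of molecules. In tissue of mixed cell types, fewer cells of a type and less RNA per cell cannot be told apart.

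Reads were concentrated in energy metabolism, haemoglobin and contraction. The 10 genes with the highest mean value took 19.9% ± 2.66 (SD, n = 3) of all values, the top 100 took 44.6% ± 3.33 and the top 500 took 62.3% ± 2.45. Of the top 100 genes, 14 were heart-muscle genes, 10 encoded proteins of the mitochondrial genome, 6 were haemoglobins and 5 were other genes of red cells. A further 5 encoded ribosomal proteins, 4 were matrix genes and 4 were keratins. Of the endothelial list, 0 genes were in the top 100, and the same held for the lists of fibroblast identity, thrombocytes, leukocytes, macrophages and neutrophils. The top 100 are a small part of 21692 genes, so short lists can lack members there without being low. Defining genes of heart muscle, valve endothelium, interstitial cells, red cells and leukocytes were all detected, with the values given below. In all, 47 of the top 100 genes belonged to none of the lists used for this count. Some lists, such as those of pituitary and hypoxia-responsive genes, were not used for it.

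**Figure D1:**
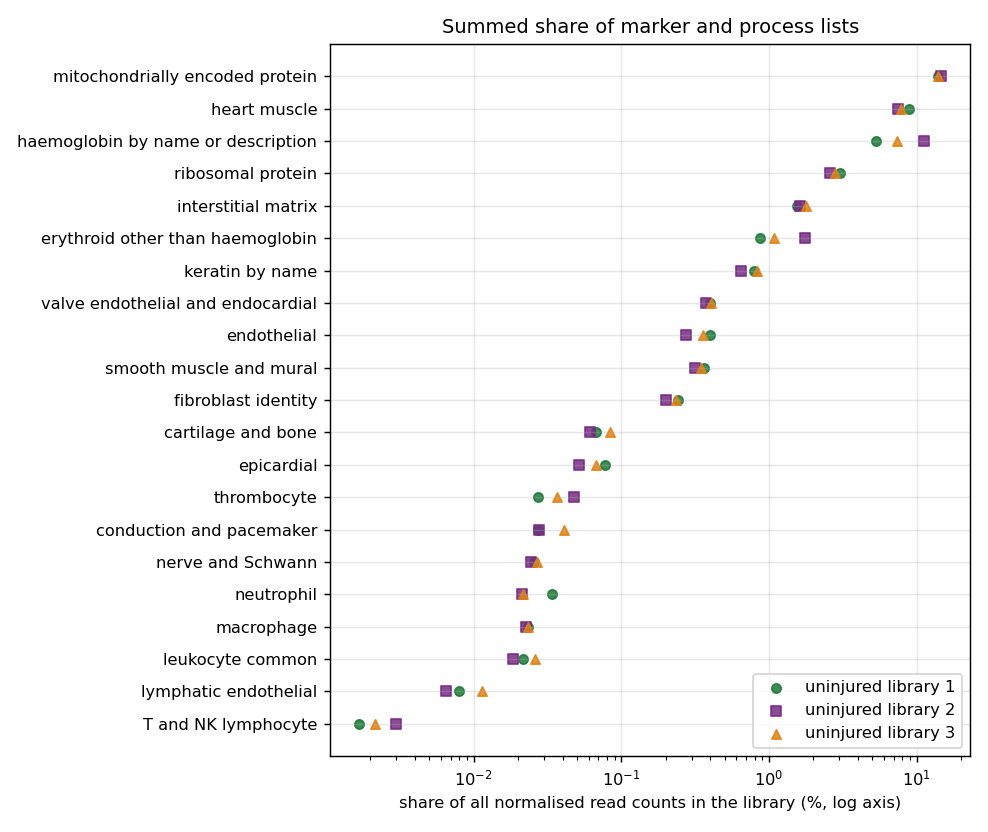
Share of all normalised read counts taken by a selection of the marker and process lists in the 3 uninjured libraries (horizontal log axis, percent; circles, squares and triangles are libraries 1, 2 and 3). The lists drawn run from 14.2% on average for mitochondrially encoded proteins to 0.00227% for T and NK lymphocyte genes, and library 2 stands highest for haemoglobin and for the other red-cell genes.

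The 13 protein genes of the mitochondrial genome took 14.2% ± 0.427 of the values, the largest share of any list counted and one of the steadiest between libraries. The gene with the highest mean value of all was mt-co1, which encodes a subunit of cytochrome c oxidase, with 852008, 994468 and 935676 in libraries 1, 2 and 3. The other oxidase subunits mt-co2 and mt-co3 stood at ranks 4 and 6, with means of 366179 ± 49314 and 318776 ± 39469. Library 2 was the highest of the 3 in 10 of these 13 genes, against 34.9% of all genes with a mean of at least 500. Library 2 also had the largest total of values. As a share of the total, mt-co1 took 4.39%, 4.6% and 4.96% and was highest in library 3. The 2 mitochondrial ribosomal RNA genes behaved less evenly, taking 1.03%, 1.45% and 0.73% of the values.

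Heart muscle was the cell type with the most genes among the abundant ones. Of 48 heart-muscle genes found in the table, 32 lay in the top 500 of 21692. Of these 48, 46 were above 0 in all 3 libraries, against 68.1% of all genes. Their median mean value was 10525, against 89.7 over all genes in the table. Together they took 8.88%, 7.41% and 7.77% of the values, a mean of 8.02% ± 0.766.

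Contractile genes led the muscle list. The myosin heavy chain gene myh7l (ENSDARG00000079782) stood at rank 7 with 334532, 342681 and 262112 in libraries 1, 2 and 3. The atrial myosin heavy chain gene myh6 (ENSDARG00000090637) stood at 192186, 144818 and 193074. Thus reads of a chamber-specific myosin of the atrium and of 1 myosin from the ventricular list, myh7l, were both abundant. Of the ventricular list, 4 genes were in the table and took 1.6% ± 0.17 of the values. Nearly all of this, 1.57%, was myh7l, but 2 of the 4 genes were in the top 500. The myoglobin gene mb, which encodes the oxygen store of heart muscle, averaged 186629 ± 20217. The giant sarcomere protein titin has a pair of genes, and ttn.2 and ttn.1 averaged 121118 ± 10333 and 73564 ± 7783. The light chains cmlc1 and myl7 averaged 105778 ± 16254 and 70492 ± 10122. Values of myl7, a widely used marker of heart muscle, were 82079, 63368 and 66030, so all 3 libraries carried it within 1.3-fold of each other.

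Calcium-handling and regulatory genes of muscle were lower in rank. The calcium pump atp2a2a had 36116, 31446 and 37497 normalised read counts for its main gene ID, and the calcium release channel ryr2b had 16711, 14245 and 13523. Among transcription factors of the heart, hand2 averaged 5175 ± 297, tbx20 averaged 2840 ± 806 and nkx2.5 averaged 2355 ± 287. The cardiac factor gata4 had only 322, 142 and 541. The atrial natriuretic peptide gene nppa, a stretch-responsive hormone gene, had 23456, 19080 and 8620. Its coefficient of variation of 44.7% was the highest among heart-muscle genes of the top 500 whose symbol has 1 gene ID. Its relative nppb followed the same order, at 3399, 3162 and 1247. Library 3 was thus the lowest for both peptides, by 2.72-fold against library 1 for nppa.

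The ventricular factor irx4a was at 0 in all 3 libraries, and hey2, another ventricular factor, had 83, 314 and 327. The atrial receptor gene nr2f1a averaged higher in rank, with 2183, 1564 and 1763. Genes linked to the atrioventricular canal and to pacemaker muscle were measured at modest values. The repressors tbx2a and tbx2b, which hold back chamber genes in the canal, averaged 2219 ± 391 and 2249 ± 989. For tbx2b the libraries had 1349, 2090 and 3308. The pacemaker channel gene hcn4 had 227, 277 and 619, while hcn4l was at 0 throughout. The whole conduction list took 0.0272%, 0.0278% and 0.041% of the values, highest in library 3.

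Of the skeletal muscle list, only the actin genes had a mean above 1000. The skeletal actin genes acta1b and acta1a averaged 52218 ± 6767 and 7583 ± 3756. Of the other 16 genes of the list, the highest mean was that of ckmb, a creatine kinase, with 266, 250 and 103, and the myosin and tropomyosin genes myhz2 and tpma were at 0 in all libraries. Sequences of actin genes are alike, so reads may be divided between them with error. The symbol of the cardiac actin actc1a is carried by 2 gene IDs, of which the first had 97542, 143268 and 131418 and the other had 29710, 166 and 165. The latter gene ID had a coefficient of variation (SD over mean) of 170%, the highest of all genes with a mean of at least 500. Summed over both gene IDs, an alternative chosen after the values were seen, actc1a had 127252, 143434 and 131583, and its coefficient of variation was 6.25%.

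Interstitial matrix genes were the next group of tissue genes, and their summed share differed little between libraries. Of 50 matrix genes in the table, 40 were above 0 in all 3 libraries, against 68.1% of all genes. Of the 50, 24 had a mean of at least 1000 and 14 were in the top 500. Over all 21692 genes, 1790 had a mean of 1000 to 3000, 654 of 3000 to 10000 and 215 of 10000 or more. The matrix genes took 1.54%, 1.62% and 1.78% of the values. Their median mean value was 926, against 89.7 over all genes. The members col5a2b and omd were at 0 in all 3.

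Fibrillar collagens led the matrix genes. The chains of type I collagen were all in the top 50 genes, with col1a1a at 44487, 62487 and 58027, col1a1b at 41866, 49926 and 48160, and col1a2 at 37781, 48229 and 42437. Library 1 was the lowest of the 3 for each chain. The type V chains col5a1 and col5a2a, which nucleate type I fibrils, averaged 16559 ± 198 and 20593 ± 1984. The coefficient of variation of col5a1 was 1.2%, among the 20 lowest of genes with a mean of at least 500. Decorin, dcn, a small proteoglycan that binds collagen fibrils, had 37281, 39409 and 35746. Its relative lumican, lum, had 1621, 3706 and 2024, and the elastin gene elnb had 1961, 4224 and 2580. For lum and elnb library 2 was more than 2-fold above library 1, while dcn differed by 1.1-fold.

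The gel-like part of the valve matrix is built on hyaluronan, versican and the link proteins that join them. The versican gene vcanb had 3813, 4869 and 7372, and the link protein genes hapln1a and hapln1b had 3041, 2851 and 3815, and 2457, 2620 and 4670. All 3 genes were highest in library 3. The hyaluronan synthase has2 was highest there as well, with 797, 713 and 1183. The periostin genes postna and postnb, which encode a matrix protein of valves, averaged 4685 ± 834 and 3579 ± 402.

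Genes that mark fibroblast-like cells took 0.226% ± 0.0213 of the values. The secreted follistatin-like gene fstl1b averaged 20398 ± 2553 and the procollagen processing enhancer pcolcea averaged 9317 ± 858. The growth factor receptor pdgfra had 3725, 3962 and 4075, within 1.1-fold. Transcription factors of mesenchyme differed in how even they were. The forkhead genes foxc1b and foxc1a had 1312, 1403 and 1489, and 873, 692 and 605. Values of twist1b were 674, 1224 and 1733, and those of sox9a were 621, 488 and 1457. The epicardial and fibroblast factor tcf21 had 397, 617 and 377, and the epicardial genes tbx18 and aldh1a2 averaged 1218 ± 168 and 1929 ± 228. Podocalyxin, podxl, led the epicardial list at 8604 ± 2025, but it is also made by endothelium. The epicardial markers wt1b and upk3b had means of 77.7 and 3.

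Smooth-muscle and mural-cell genes took 0.341% ± 0.0254 of the values, and 1 gene, the myosin light chain myl9b, held most of this with 45184, 42811 and 35154. The smooth-muscle actin acta2 had 3731, 3679 and 6585, and the myosin myh11a had 2938, 2244 and 4431. For both of these library 3 was the highest. The pericyte gene rgs5a averaged 1229 ± 300, and kcnj8, another pericyte gene, averaged 60.7 ± 34.9.

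Endothelial genes were detected almost without exception but held few reads. Of 32 endothelial genes, 31 were above 0 in all 3 libraries, against 68.1% of all genes, and 4 were in the top 500. They took 0.4%, 0.275% and 0.359% of the values. Their median mean value was 630. The blood-clotting factor vwf had 12815, 11403 and 11978, the caveola protein cav1 had 14077, 9414 and 10725, and the endothelial cadherin cdh5 had 11761, 8202 and 11009. The adrenomedullin co-receptor ramp2 had 8704, 4758 and 5349. The growth factor receptors kdr and kdrl averaged 4009 ± 527 and 3256 ± 139.

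Library 2 was the highest for none of the more abundant endothelial genes. Among the 17 endothelial genes with a mean of at least 500, 12 were highest in library 1, 5 in library 3 and 0 in library 2. Over all 4593 genes with that mean and no tie, library 1 was the highest in 37.3%, library 2 in 34.9% and library 3 in 27.8%. The adhesion gene pecam1, with 342, 94 and 291, and the tight-junction gene cldn5b, with 872, 341 and 415, varied more. At the other end, the endothelial factor sox7 had 922, 913 and 920, closer than counting error would give as a rule.

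Genes of valve endothelium and endocardium took 0.398%, 0.374% and 0.402% of the values. Of 25 genes, 24 were above 0 in all libraries, against 68.1% of all genes, and wnt9b was at 0 in all. The fibronectin gene fn1b, an adhesive matrix gene, had by far the highest values, 43081, 53913 and 37421. It supplied 0.223% of all values, out of 0.391% ± 0.0154 for the list. Without it, an alternative chosen after the values were seen, the other 24 genes took 0.176%, 0.124% and 0.204%, a range of 1.64-fold, against 1.46-fold for the general endothelial list. The value of fn1b was highest in library 2, where the rest of the list was lowest. The cell-junction receptor heg1 had 7965, 3769 and 6685, and the endocardial factor gata5 had 5409, 5489 and 6269.

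Flow-sensitive and developmental factors of the valve ranged widely in value, down to 0. The flow-induced factor klf2a had 5299, 4168 and 5065, and its copy klf2b averaged 2062 ± 247. The receptor notch1b had 2869, 2183 and 4094, and nfatc1, a factor needed for valve growth, had 912, 1127 and 1796. The flow-responsive factor klf4 had 56, 22 and 90, and wnt9b, as given above, was at 0. Mechanosensitive channels were present at lower values, with piezo1 at 813 ± 152, trpv4 at 872 ± 40.1 and pkd2 at 962 ± 390. Among the 17 genes of the list with a mean of at least 500, 11 were highest in library 3, 5 in library 1 and 1, fn1b, in library 2. Over all genes with that mean and no tie, 27.8% were highest in library 3, 37.3% in library 1 and 34.9% in library 2. The highest of the lymphatic marker genes was prox1a, which is also a valve gene and had 1024, 979 and 1760. The others were lower, with stab1 at 302, 293 and 241 and stab2 at 103, 96 and 86. The lymphatic receptors flt4, lyve1a and lyve1b had means of 23.3, 2.33 and 5.

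**Figure D2:**
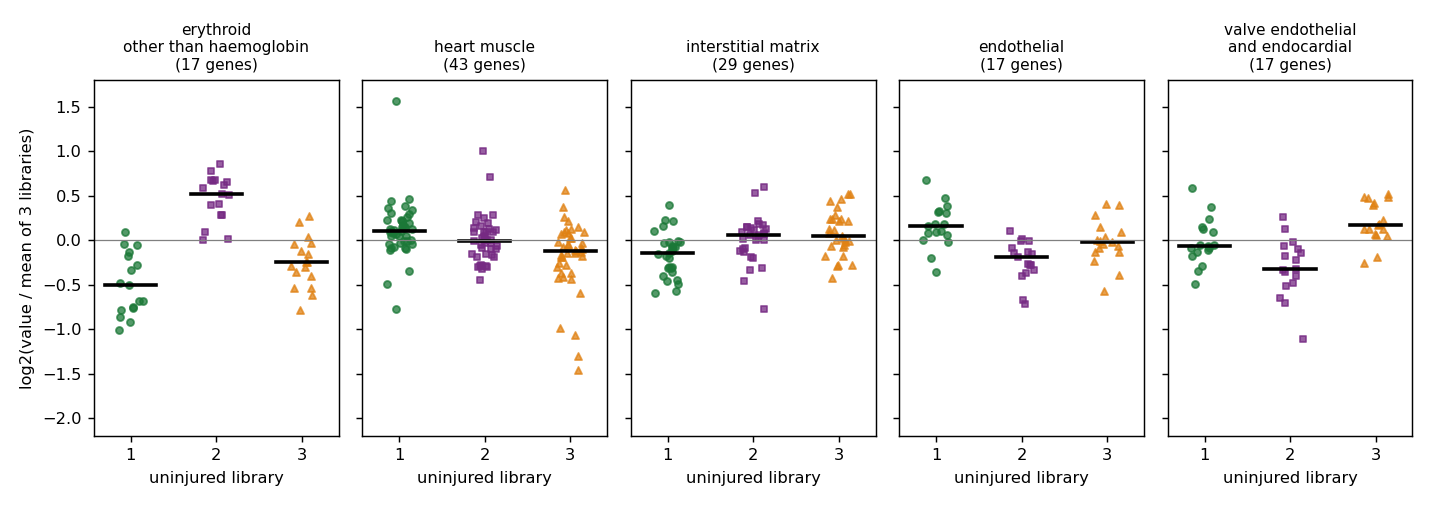
Each point is a gene with a mean of at least 500, placed by the log2 ratio of its value in a library to its mean over the 3 libraries (vertical axis), for 5 marker lists; black bars are medians. Red-cell genes are highest in library 2, endothelial genes lean to library 1 and valve endothelial genes to library 3; 2 points of the actc1a gene ID with 166 and 165 in libraries 2 and 3 lie below the axis.

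Blood was the source of abundant reads that varied most between libraries. Haemoglobin genes took 5.3%, 11.2% and 7.38% of the values, a mean of 7.95% ± 2.97. The gene with the highest mean value outside the mitochondrial genome was si:ch211-5k11.8, described in the table as similar to an adult alpha haemoglobin, with 402620, 959949 and 524719. The beta chain hbba1 is carried by 2 gene IDs, with 275442, 564352 and 354553 for ENSDARG00000089087 and 122779, 252715 and 132791 for ENSDARG00000097238. The alpha chain hbaa1 had 197893, 476402 and 294671. Reads of these near-identical genes cannot be divided with certainty, but library 2 was the highest and library 1 the lowest for all 4 gene IDs. The embryonic haemoglobins were low. Of these, hbae5 was present in each library, at 57, 60 and 74, hbbe2 had 45, 0 and 61, and hbae1.3 was at 0.

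As a summed share, other red-cell genes followed the same order of libraries. They took 0.865%, 1.75% and 1.09% of the values. Among 17 with a mean of at least 500, 15 were highest in library 2, against 34.9% of all genes with that mean. Single genes could differ in order, as nt5c2l1 had 49098, 61965 and 41038 and was lowest in library 3. The haem synthesis enzyme alas2 had 28655, 104436 and 39594, a range of 3.64-fold. The red-cell anion exchanger slc4a1a had 19748, 50269 and 29878, the carbonic anhydrase cahz had 22692, 57976 and 28400, and the membrane skeleton gene sptb had 11753, 30567 and 21970. Red-cell transcription factors were lower, with klf1 at 457, 897 and 847 and gata1a at 87, 305 and 338. Of the erythroid list 20 of 21 gene IDs were above 0 in all libraries, against 68.1% of all genes. The exception was the other gene ID of ank1a. The part that the amount of blood in each library may have in the levels of other lists was not tested.

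Thrombocytes, the nucleated platelets of fish, showed mainly in the adhesion receptor gene gp1bb, with 3715, 7552 and 4412. The list took 0.0273%, 0.048% and 0.0369% of the values, again highest in library 2. Its member gp9 had 408, 1276 and 834, while p2ry12, a platelet receptor gene, was at 0.

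Immune lists took small shares, below those of the heart-muscle, matrix, red-cell and general endothelial lists. Some lists of other kinds took less, such as lymphatic endothelial genes at 0.00859%. Lists differ in length and in kind of gene, so these shares do not rank cell types. The 14 common leukocyte genes took 0.022% ± 0.00379 of the values, the 27 macrophage gene IDs 0.0232% ± 0.000545 and the 15 neutrophil genes 0.0256% ± 0.0074. Their median mean values were 128, 139 and 97, close to the 89.7 of all genes. The neutrophil share includes srgn, a gene of many blood and vessel cells described below, and a share without it was not computed. Of these 3 lists 0 members were in the top 500 of 21692 genes. That top is a small part of all genes, so lists of this size would have few members there in any case. The macrophage share differed by 1.04-fold between libraries, the least of the lists counted. Medians of the coefficient of variation were taken over members with a mean of at least 500. The median was 0.191 over 17 endothelial genes. The macrophage value of 0.358 rested on very few genes, apoeb among them, and does not describe the list.

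Antigen-presentation genes were the highest of the leukocyte list, with the invariant chain genes cd74a at 1112, 932 and 1086 and cd74b at 888, 1116 and 1204. The pan-leukocyte phosphatase ptprc had 300, 247 and 496. For macrophages, apoeb averaged 681 ± 244, the scavenger receptor marco had 478, 451 and 334, and the pore-forming gene mpeg1.1 had 92, 123 and 222. The growth factor receptor csf1ra, which macrophages need, had 203, 107 and 241. The neutrophil list was led by serglycin, srgn, at 4651, 2889 and 2225, which is made by many blood and vessel cells. Without it the defining neutrophil genes were low, with mpx, the myeloperoxidase gene, at 0, 0 and 119 and lyz at 25, 0 and 13. The value of mpx thus rested on library 3 alone. A value of 0 still allows up to 3 reads, counting error only, or a value of 3, 3.52 and 2.79 in the 3 libraries.

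Lymphocyte genes were barely detected. Of 13 T and NK gene IDs, 3 were above 0 in all libraries, against 68.1% of all genes. Both cd8a and cd8b were at 0 in all. The T-cell kinase lck had 0, 23 and 20 and the co-receptor cd4-1 had 0, 0 and 11. The co-stimulation receptor cd28 was uneven, at 53, 390 and 24. Of 6 B-cell genes, pax5 and igic1s1 were at 0 in all libraries, and the list took 0.000387% of the values.

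The 3 libraries ranked genes in a broadly similar order, and the share of genes within 2-fold depended strongly on level. Across the 17042 genes with a mean of at least 10, Spearman correlations were 0.893 between libraries 1 and 2, 0.909 between 1 and 3 and 0.917 between 2 and 3. These are correlations across genes, which are not independent of each other. Their mean was 0.906, and it was 0.892 over genes with a mean of at least 500, so it did not rise with level. Pearson correlations of log2(value + 1) were lower, at 0.758, 0.802 and 0.83. Between pairs of libraries 65.6%, 68.7% and 70.8% of these genes lay within 2-fold, and library 1 was in both of the lower pairs.

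**Figure D3:**
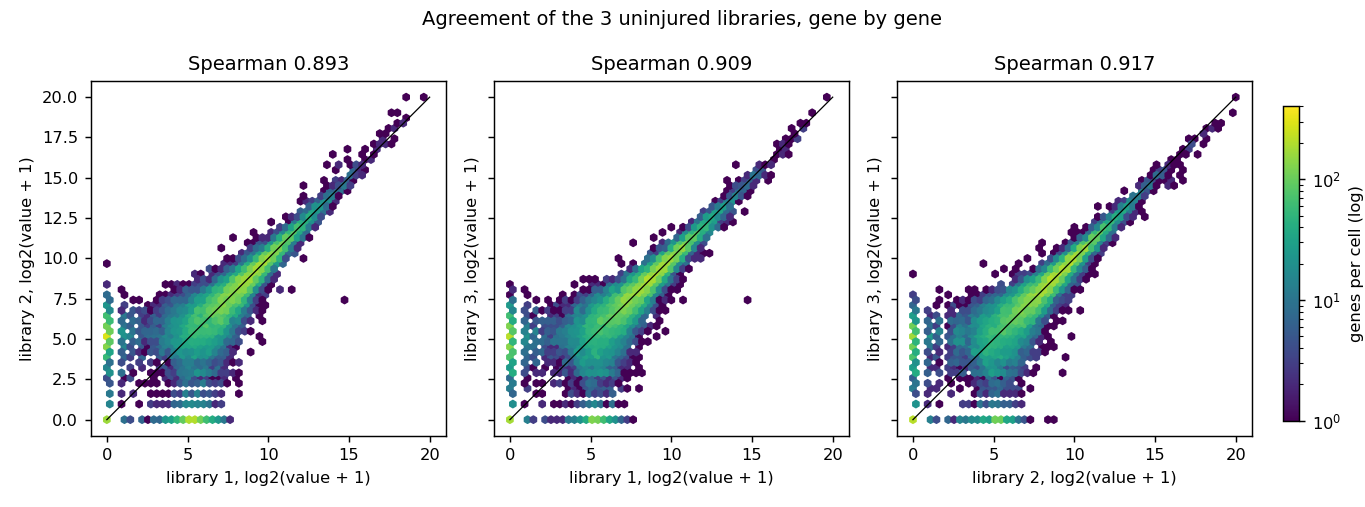
Values of the 17042 genes with a mean of at least 10 in each pair of the 3 uninjured libraries, on log2(value + 1) axes. Colour gives the number of genes per cell (log scale), and a line marks equality. Points spread widely at low values, with many genes at 0 in a single library of a pair, and close on the line at high values; Spearman correlations, printed above the panels, run from 0.893 to 0.917 over genes with a mean of at least 10.

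Spread fell with level but stayed above counting error at each level examined. Genes with a mean between 100 and 300 had a median coefficient of variation of 0.342, where counting error alone would give 0.0772. Between 1000 and 3000 the median was 0.156 against 0.0259. At a mean of 10000 or more it was 0.118 against 0.00714, a ratio of 16.6. All 3 values lay within 2-fold for 52% of genes with a mean of 100 to 300, for 93.2% between 1000 and 3000 and for 89.8% at 10000 or more.

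**Figure D4:**
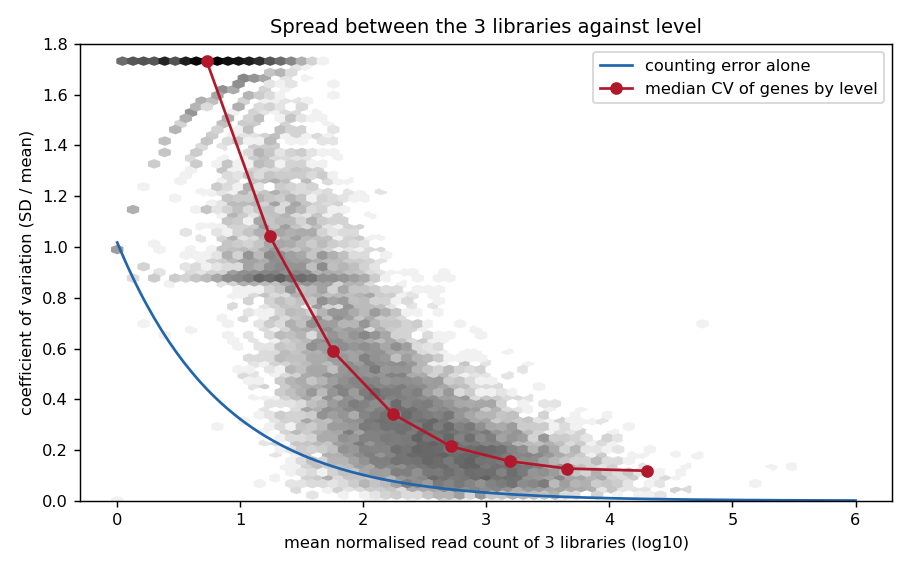
Coefficient of variation over the 3 uninjured libraries (vertical axis) against mean normalised read count (horizontal axis, log10), with grey shading for the number of genes, red points for the median by level and a blue line for counting error. The median falls from 0.342 at means of 100 to 300 to 0.118 at 10000 or more, and lies above the blue line at each level.

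Detection differed between libraries although depth was similar. Genes above 0 numbered 16549, 17121 and 18229 in libraries 1, 2 and 3. Of all genes, 14770 (68.1%) were above 0 in all 3 libraries, 2494 in 2, 2601 in 1 and 1827 in none. Of the 5095 genes at 0 in 1 or 2 libraries, 2972 had a value of at least 20 in another and 168 a value of at least 100. The largest of these contrasts included isg15, an interferon-induced gene, at 122, 0 and 456, the antimicrobial peptide gene leap2 at 177, 426 and 0, and g0s2, an inhibitor of fat breakdown, at 91, 327 and 0. The uncharacterised gene si:ch211-214b16.2 had 0, 846 and 335.

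Low values were not spread alike. Genes with a value of 4 to 9 numbered 321 in library 1, 649 in library 2 and 945 in library 3, while those with 20 to 29 numbered 831, 1063 and 1050. In library 1, few genes thus lay between 0 and the bulk of measured genes, and library 3 had the most. How many molecules stood behind these reads, and whether molecular indexes were used to remove copies, is not given in the sources used here.

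**Figure D5:**
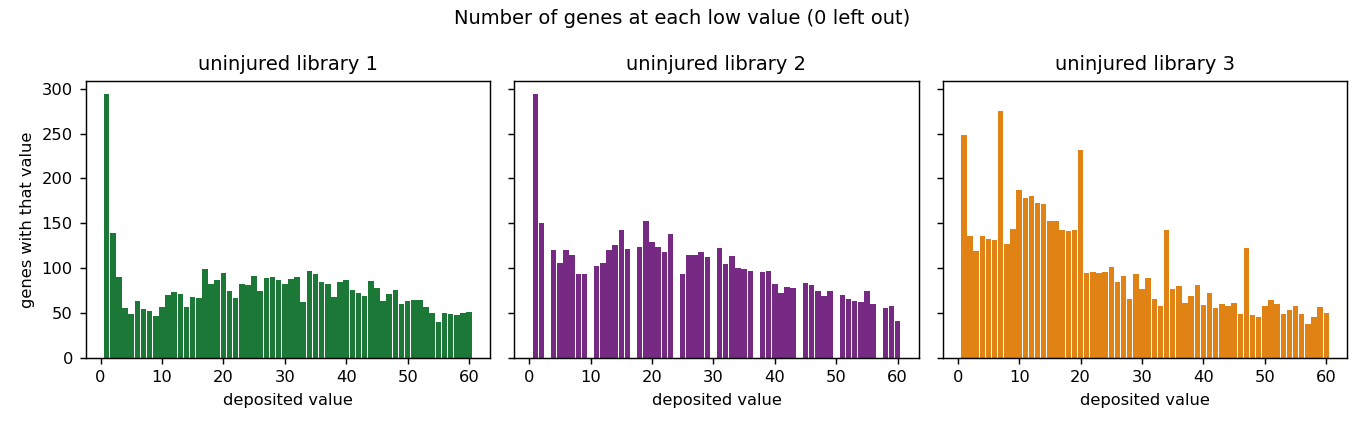
Number of genes (vertical axis) at each deposited value from 1 to 60 (horizontal axis) in the 3 uninjured libraries, values of 0 left out. Library 1 has a dip between 4 and 9 with 321 genes, against 649 and 945 in libraries 2 and 3; the empty bars in library 2 and the raised bars in library 3 follow from dividing whole reads by 0.851 and 1.07 and rounding.

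Genes whose values differed most were often highest in library 2. The 100 genes with the highest coefficient of variation were taken among 4602 with a mean of at least 500. Of these 100, 58 were highest in library 2, 30 in library 1 and 12 in library 3. Over all genes with that mean and no tie, 34.9% were highest in library 2, 37.3% in library 1 and 27.8% in library 3. Of the 100, 8 were in the red-cell lists, which hold 24 of the 4602. The haem synthesis gene hmbsb had 240, 2449 and 579. Others stood out in library 1, with the clotting transglutaminase f13a1a.1 at 4978, 950 and 1328 and the basal epithelial keratin krt5 at 1074, 246 and 192. At the other end, the ubiquitin ligase subunit cul1b had 734, 737 and 736, and the translation factor eef2b had 39800, 39393 and 39256. The coefficient of variation was 0.00208 for cul1b and 0.00515 for sox7, below the median counting error of 0.0449 at means of 300 to 1000. Genes this close were picked from 4602 on 3 values each, so their closeness does not show that they are stable.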

How the data were processed

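RNA-seq values of the 3 uninjured libraries were read from the deposited table. The authors' values are a normalised signal, the read count per gene divided by a size factor and rounded. The 6 columns of the other groups were not used. Per the submitters' processing notes, FastQC 0.11.8, Trimmomatic 0.33, STAR 2.6.0c, featureCounts 1.6.0 and DESeq2 1.18.1 were used with danRer11 (GRCz11); their order, their settings and the use of strand in counting are not given in the sources used here. Size factors were estimated from the spacing of low values, a step tested on 6 simulated libraries of 21692 genes (largest error 0.14%).

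Shares are summed values over the column total, which was 19414871, 21616553 and 18877857. No group was compared and no test was made. Of 728 symbols in 34 marker and process lists, 612 were found in the table, and 13 genes are in more than 1 list. The other symbols were not analysed here. Members and lists were chosen with earlier results of these data known. The counts for haemoglobin by name or description, keratins by name and mitochondrial ribosomal RNA were added after the values were seen. Named genes were the 40 nuclear genes of highest mean, the 5 highest members of each list with its defining markers near 0, the 10 highest and 10 lowest coefficients of variation at a mean of at least 500, the 10 highest genes at 0 in a library, the 15 duplicate pairs of highest summed mean, and a fixed set. Others, such as csf1ra, gata1a, krt5, sox7, col5a1 and the channels, were named after their values were seen. Ranking per coding length was planned and not made, as no lengths were at hand, and no coordinates of the authors' build were used. Alternatives covered scaling, denominator, filter, pseudocount, list length and leaving out each library. Values were computed in Python 3.11.15 with pandas 2.3.3 and numpy 2.4.6, correlations with scipy 1.17.1, and plots with matplotlib 3.10.9.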

Additional observations from a re-analysis of the deposited data

How the results depend on the processing

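Of 247 alternatives to 49 results, 213 stayed within the spread between libraries, or within 1.5 times for a count, and 34 moved. For the share of a list, leaving out 1 of the 3 libraries or taking their median cannot leave that spread. Rank correlations do not depend on the pseudocount or on scaling of the columns. These alternatives stayed by construction, so the count of 213 is not a measure of stability. With mitochondrial and haemoglobin genes left out of the total, the shares became 10.4% for heart muscle, 2.15% for matrix, 0.447% for endothelial, 0.51% for valve endothelial, 0.0286% for leukocyte and 0.0302% for macrophage genes, as a smaller total requires. Without fn1b the valve endothelial list took 0.168%. In the top 100 genes there were 14 heart-muscle, 4 matrix, 0 endothelial and 5 other red-cell genes, and in the top 1000 there were 22 matrix and 8 endothelial genes. The mean Spearman correlation was 0.892 at a mean of at least 500, and ran from 0.893 (without library 3) to 0.917 (without library 1). Genes within 2-fold made up 80.7% at a mean of at least 50, 95.9% at 500 and 72.6% with a pseudocount of 10, and from 65.6% to 70.8% with a library left out. Duplicate pairs in which 1 copy led numbered 444 at 10-fold and 398 at a summed mean of at least 1000, against 768 in the main setting. The higher summed mean also leaves fewer pairs to count, so 398 does not show a smaller share of pairs. Without library 3, mpx fell from rank 13378 to 18548. Shares and ranks per coding length were not run. No paired analysis was possible because a single group was described and no test was made. Depth limits genes near the floor of 3 reads.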

Other observations

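Several abundant genes belonged to none of the cell type lists. The translation factor eef1a1l1 had 193557, 253978 and 222422 in libraries 1, 2 and 3, the mitochondrial nucleotide carrier slc25a5 had 156317, 154489 and 135216, and the glycolytic enzyme gapdh had 105175, 106370 and 101196. The coagulation factor VIII gene f8, known to be made by endothelium in mammals but not in the list used, stood at rank 39 with 49002, 38922 and 55496, and the cold-inducible RNA-binding gene cirbpb had 47089, 48229 and 44393. A long non-coding RNA gene, CR383676.1, had 141757, 140070 and 115260. The protein-coding gene zgc:158463 was uneven, at 67743, 105359 and 29445, and so was FO704772.2, at 29187, 77413 and 23174. Both were highest in library 2 and lowest in library 3.

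Genes known from other organs were found at unequal levels. The growth hormone gene gh1, made by the pituitary, had 36019, 37953 and 40083, and the other 7 pituitary genes had means of at most 39.7, with lhb and pitx1 at 0. The retinol carrier rbp4 and the transferrin gene tfa, both of the liver list, had 12455, 9628 and 10814, and 1235, 772 and 1018, while the liver genes apoa2 and vtg1 were at 0 and fabp10a had 0, 40 and 0. Keratin genes were abundant as a group, with 6 of 11 at a mean of at least 1000 and 4 in the top 100. They took 0.753% ± 0.0941 of the values, led by krt8 with 44927, 40570 and 42135 and krt15 with 37456, 35001 and 34408, and the skin factor tp63 had 232, 307 and 196. Over all 21692 genes, 1790 had a mean of 1000 to 3000, 654 of 3000 to 10000 and 215 of 10000 or more. The cartilage list had a median mean value of 36.8, against 89.7 over all genes. Of its 28 genes, 3 had a mean of at least 1000. These were the matrix protein matn4 with 8266, 7290 and 8855, the proteoglycan acana with 1471, 1780 and 1147, and col2a1b. Among the cartilage collagens col2a1b had 696, 2059 and 2022 and col2a1a had 0, 0 and 16. The bone-linked gene spp1 had 104, 36 and 223, and matn1 and runx2a were at 0.

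Response genes were measurable in resting tissue. The binding protein igfbp1a, which responds to hypoxia and insulin, had 37603, 56759 and 21727, and the lactate dehydrogenase ldha had 25625, 25900 and 26338. The clock repressor nr1d2a had 14485, 9985 and 11511. The immediate early gene egr1 had 2437, 1898 and 2010, and fosb had 255, 34 and 3. The proliferation markers mki67 and pcna averaged 528 ± 175 and 875 ± 296, and both were highest in library 2. Time of collection is not given in the sources used here.

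Gene pairs named as copies a and b often differed in reads. Of 1777 pairs with a summed mean of at least 100, 768 (43.2%) had 1 copy at least 4-fold above the other in all 3 libraries, 424 of them the a copy and 344 the b copy, with no correction for length. Pairs were formed by name, so a few, such as nppa and nppb, are relatives and not copies. For the type I collagen chains, col1a1a held 51.5%, 55.6% and 54.6% of the pair's reads in libraries 1, 2 and 3. Among the pairs with the highest values, txnipb was at 0 in all libraries beside txnipa at 33823, 27660 and 27824, and fibina had 1, 23 and 16 beside fibinb at 30601, 25007 and 27998. Over 1000 pairs with both copies at a mean of at least 100, the median SD of a copy's share was 5.29 percentage points between libraries.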
